A study of Apeltes quadracus with 21 samples.

Results

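The dorsal fin (DF) of the fourspine stickleback *Apeltes quadracus* was compared with the last dorsal spine (DSL), the spine that stands directly in front of it. The comparison used 6 of the 21 libraries of the series: DF and DSL from each of the same 3 fish, taken as replicates 1, 2 and 3. All fish were L/L at *HOXDB*, the *Hox* cluster linked to spine number in this species, L being the haplotype of low spine number. They were fry from clutches of the Louisbourg population, at stage 31, when spines and fins are forming in the fin fold, and each had 4 dorsal spines. Each library was 1 dissected piece of tissue from 1 fish, so bone, cartilage, skin and other cells were sequenced together. In such bulk samples, fewer cells of a type and less RNA per cell cannot be told apart. The 5 other tissues of the same fish were the first 3 dorsal spines (DS1, DS2, DS3), a blank pterygiophore (Pter, a midline bone that carries no spine) and the anal fin (AF), and these entered the estimate of the spread and are given for orientation.

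A fin and a spine are both skeletal outgrowths of the dorsal midline: a fin is carried by segmented, flexible rays, while a stickleback spine is a single stiff bone. *Hox* genes encode homeodomain transcription factors that give cells along the head-to-tail axis their identity. They lie in clusters, and within a cluster the genes are numbered by paralogue group, low numbers acting nearer the head and high numbers nearer the tail. In the paired fins and limbs of zebrafish and mouse, the genes at the high end of the *HOXA* and *HOXD* clusters pattern the far end of the appendage. Teleost fish carry duplicated clusters, named here *HOXAA* and *HOXAB*, *HOXBA* and *HOXBB*, *HOXCA*, and *HOXDA* and *HOXDB*.

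The table held 31532 gene models, of which 21134 were tested. Only 47 had a name, all of them *Hox* genes, and the files do not pair the other 31485 IDs with gene names. The dissected tissues could therefore not be checked against markers of bone, cartilage, muscle, skin or nerve. DF libraries held 30425144 to 32324029 counts and DSL libraries 26357373 to 31127495. Fish accounted for 57.3% of the variance of log2 CPM (a gene's counts relative to the scaled total of its library) over the 6 libraries, tissue for 31.8% and the rest for 10.9%, shares not adjusted for the number of groups. In every fish DF lay below DSL on both of the first 2 principal components, which held 35% and 30.5% of the variance. Tissues were therefore compared within fish.

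The first question was how many genes differ between the fin and the spine beside it. In edgeR's quasi-likelihood test with fish as a block, 4393 of 21134 gene models (20.8%) passed a Benjamini-Hochberg adjusted p of 0.05. Of these, 2453 (11.6%) were higher in DF and 1940 (9.18%) were lower. Most differences were small. The median log2 difference of the higher genes was 0.671 (interquartile range 0.462 to 0.91), and that of the lower genes was -0.644 (-1.1 to -0.441). Higher genes had a median of 21.2 CPM in DF and 13.5 CPM in DSL, and lower genes had 9.91 CPM in DF and 16.2 CPM in DSL. By chromosome, the share of tested genes that were higher ran from 7.82% on chromosome 15 to 13.1% on chromosome 16. The count was lower with 1 fish fewer: 2483 genes passed without replicate 1, 2496 without replicate 2 and 3433 without replicate 3. With tissue as the only term, 1587 genes passed, all of them among the 4393.

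A difference of at least 1 on the log2 scale was reached by 1042 genes (4.93%), 484 higher in DF (2.29%) and 558 lower (2.64%). The 484 higher genes took 1.6, 2.06 and 1.71% of the reads in the DF libraries of replicates 1, 2 and 3, and 0.555, 0.896 and 0.664% in the DSL libraries. The 558 lower genes took 0.739, 0.639 and 0.706% of the reads in DF and 2.07, 2.29 and 1.85% in DSL. Differences of 3 or more on the log2 scale were seen in 41 higher and 47 lower genes. *Hox* genes made up 4 of those 41 and 0 of those 47, beside 38 of the 21134 gene models tested. With so few *Hox* genes tested, the 0 is not read as a result about them. The 47 lower genes had a median of 0.0654 CPM in DF and 0.86 CPM in DSL. The 41 higher genes had medians of 3.28 CPM in DF and 0.117 CPM in DSL, and the most abundant reached 434 CPM in DF. Complete separation was rare: 5 gene models had at least 30 reads over the DF libraries and none in DSL, and 2 had at least 30 in DSL and none in DF.

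**Figure D1:**
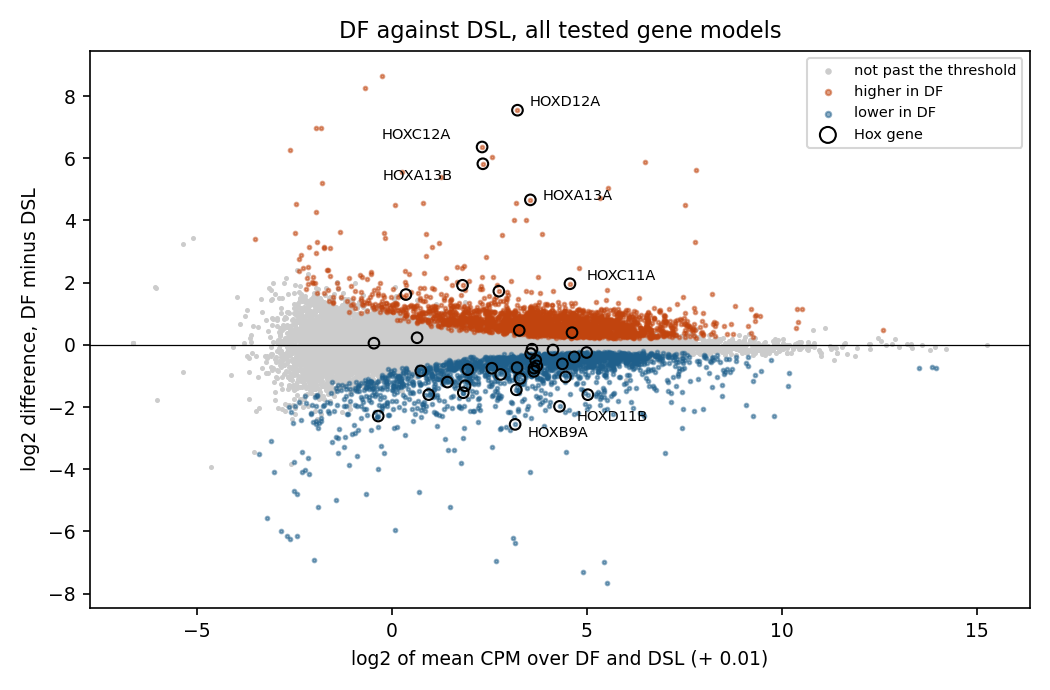
Log2 difference DF minus DSL (vertical axis) against mean level over the 6 libraries (horizontal axis, log2 of CPM + 0.01) for the 21134 gene models tested. Orange points are the 2453 genes higher in DF, blue points the 1940 lower, and black circles the 38 tested *Hox* genes, of which *HOXD12A* stands highest at 7.55.

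The *Hox* genes were compared next, since DF and DSL are neighbours along the axis that these genes pattern. Of the 38 tested, 31 passed (81.6%, beside 20.8% of all gene models), 9 of them higher in DF and 22 lower. Their median log2 difference was -0.644, beside -0.0007 over all gene models tested. CPM did not overlap between the tissues in 30 of the 38: DF lay above DSL in 8 (13.7% of all gene models did) and below it in 22 (11.8% did). Direction differed by paralogue group. Of the 19 tested genes of groups 1 to 8, 16 were lower in DF, *HOXA2B* alone was higher, and 2 did not pass. Of the 17 genes of groups 9 to 12, 6 were higher, 6 lower and 5 did not pass, and both tested genes of group 13 were higher. Over the 38 genes, group number and log2 difference had a Pearson correlation of 0.552 and a Spearman correlation of 0.532. Genes of 1 cluster are neighbours and all 38 come from the same 6 libraries, so these are descriptions. *HOXA2A*, *HOXC6A*, *HOXD9A* and *HOXD10A* each overlap another gene model on the opposite strand, and their reads are less certain, since the sources used here do not say whether counting took account of strand.

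**Figure D2:**
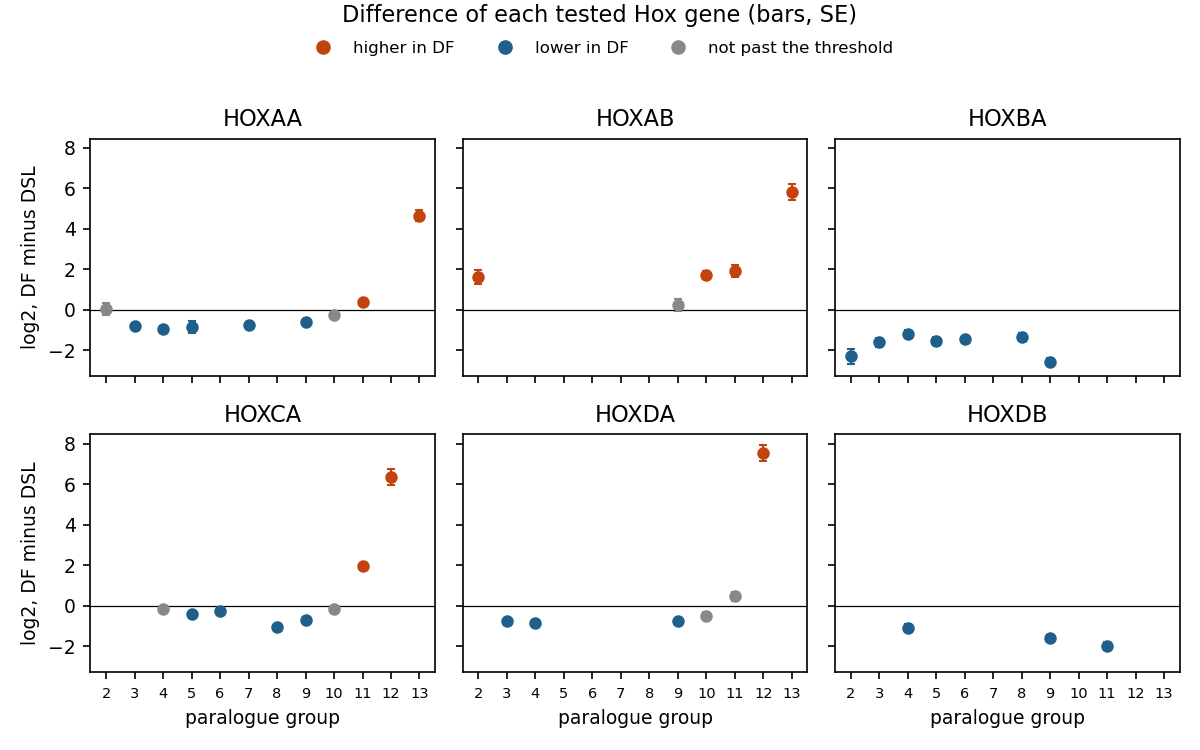
Log2 difference DF minus DSL with its SE (vertical axis) for each tested *Hox* gene by paralogue group (horizontal axis), 1 panel per cluster. No *HOXBB* gene was tested. Points above 0 at groups 12 and 13 lie between 4.66 and 7.55, and all 7 *HOXBA* and all 3 *HOXDB* genes lie below 0.

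The largest *Hox* differences were at the group 12 and 13 ends of 4 clusters. *HOXD12A* (chromosome 16, 9109733 to 9111713 of the assembly made by the authors, minus strand) had 20.6, 18.0 and 16.9 CPM in DF of replicates 1, 2 and 3, against 0.177, 0.0322 and 0.0877 CPM in DSL. Every DF library was far above every DSL library. The log2 difference was 7.55 ± 0.379 (SE, edgeR adjusted p 4.42e-11), and the pooled reads, 1938 in DF and 9 in DSL, gave a ratio of 192 (95% counting interval 101 to 421). The level in DSL was 0.534% of that in DF.

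*HOXC12A*, the group 12 gene of *HOXCA* (chromosome 12, 10228748 to 10232455, plus strand), had 8.18, 10.8 and 10.4 CPM in DF, against 0.141, 0.0643 and 0.146 CPM in DSL. Its log2 difference was 6.36 ± 0.402 (SE, edgeR adjusted p 2.14e-08), with a ratio of pooled reads of 83.2 (46.3 to 167). Both group 12 genes thus had 11 reads or fewer over the 3 DSL libraries.

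Among the group 13 genes, *HOXA13A* and *HOXA13B* are the copies of the gene that in mouse and zebrafish patterns the far end of limbs and paired fins. *HOXA13A* (chromosome 10, 9816528 to 9819574, minus strand) had 23.2, 21 and 23.2 CPM in DF, against 1.48, 0.45 and 0.789 CPM in DSL. Its log2 difference was 4.66 ± 0.249 (SE, edgeR adjusted p 9.39e-11). DSL held 4.04% of the DF level, and DS1, the spine farthest from the fin, held 4%. *HOXA13B* (chromosome 20, 9569951 to 9573155, plus strand) had 11.2, 7.67 and 10.7 CPM in DF, against 0.247, 0 and 0.263 CPM in DSL. Its log2 difference was 5.82 ± 0.389 (SE, edgeR adjusted p 4.42e-08), and the ratio of pooled reads was 58 (35.6 to 102). *HOXC13A* was too low to be tested, with 18 reads over the DF libraries and 1 in DSL (ratio 16.1, counting interval 2.54 to 669). By replicate these were 6, 11 and 1 reads in DF and 1, 0 and 0 in DSL, and in CPM its tissues overlapped. *HOXB13A*, the last gene of *HOXBA*, had 0 reads in both tissues, which allows up to 0.0286 CPM in DF and 0.032 CPM in DSL by counting error alone.

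Other genes near the high end of the clusters were also higher in DF, by less. *HOXC11A* (chromosome 12, 10239775 to 10242780, plus strand) had 38.1, 35 and 39.5 CPM in DF, against 12.1, 8.52 and 8.68 CPM in DSL. Its log2 difference was 1.97 ± 0.161 (SE, edgeR adjusted p 4.9e-07), and the tissues did not overlap. *HOXA11B* had 6.3, 4.36 and 5.99 CPM in DF, against 0.954, 1.32 and 2.02 CPM in DSL (log2 difference 1.92 ± 0.317, edgeR adjusted p 0.000166). *HOXA10B* had 13.5, 9.74 and 7.8 CPM in DF, against 2.65, 2.83 and 3.54 CPM in DSL (1.73 ± 0.196, edgeR adjusted p 3.37e-06). *HOXA11A*, the partner of *HOXA11B* in *HOXAA*, had 30.6, 24.9 and 27.1 CPM in DF, against 27.8, 20.3 and 16.5 CPM in DSL. Its tissues overlapped, and its difference of 0.393 ± 0.131 (edgeR adjusted p 0.0371) did not pass with tissue as the only term (adjusted p 0.603) or without replicate 2 (0.134), replicate 3 (0.317), DF replicate 2 (0.084), DF replicate 3 (0.264), DSL replicate 1 (0.0922), DSL replicate 2 (0.0619) or DSL replicate 3 (0.149). *HOXD11A* had a log2 difference of 0.467 ± 0.223 and did not pass (edgeR adjusted p 0.159). Its tissues overlapped, with 9.65 to 13.1 CPM in DF and 6.08 to 10.1 CPM in DSL.

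*HOXAB* was the only tested cluster in which 0 genes were lower in DF: 4 of its 5 genes were higher, and *HOXA9B* did not pass (log2 difference 0.229 ± 0.292, edgeR adjusted p 0.654). Its genes other than *HOXA2B* are of groups 9 to 13, so cluster and paralogue group cannot be told apart here. The fourth higher gene was *HOXA2B*, from the opposite end of the cluster to *HOXA13B*. It had 2.0, 2.01 and 1.67 CPM in DF, against 0.918, 0.257 and 0.76 CPM in DSL (1.62 ± 0.352, edgeR adjusted p 0.00205). Without replicate 2 its difference was 1.13 and no longer passed (edgeR adjusted p 0.0736). Nor did it pass with the 6 libraries alone and tissue as the only term (1.52, edgeR adjusted p 0.0856). Its *HOXAA* partner *HOXA2A* had 0.361 to 1.08 CPM in DF and 0.614 to 0.848 CPM in DSL and did not pass.

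The *HOXDB* genes (chromosome 6, 16016955 to 16045602 from the start of *HOXD11B* to the end of *HOXD4B*, plus strand) were all lower in DF. *HOXD11B* had 9.12, 7.04 and 7.74 CPM in DF, against 35.6, 28.7 and 29.6 CPM in DSL. It was lower in all 3 fish, with a log2 difference of -1.98 ± 0.175 (SE, edgeR adjusted p 1.73e-07). *HOXD11B* and *HOXC11A* belong to the same paralogue group and differed by nearly the same amount in opposite directions. *HOXD9B* had 15.7, 17.6 and 14.8 CPM in DF, against 55.2, 46.3 and 45.4 CPM in DSL (-1.60 ± 0.144, edgeR adjusted p 2.04e-07). *HOXD4B* had 6.5, 6.5 and 5.69 CPM in DF, against 13.9, 14.2 and 11.6 CPM in DSL (-1.08 ± 0.173, edgeR adjusted p 0.000119). No DF library reached the lowest DSL library in any of the 3 genes. The reads of *HOXD4B* are less certain, since a further gene model overlaps it on the same strand.

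In the sister cluster *HOXDA*, by contrast, *HOXD12A* was higher, *HOXD3A*, *HOXD4A* and *HOXD9A* were lower, and *HOXD10A* and *HOXD11A* between them did not pass. *HOXD4A* had 9.07, 8.12 and 9.39 CPM in DF, against 17.6, 14.5 and 16.0 CPM in DSL (-0.854 ± 0.114, edgeR adjusted p 1.89e-05). *HOXD9A* had 9.41, 9.8 and 8.65 CPM in DF, against 16.4, 14.8 and 15.7 CPM in DSL (-0.748 ± 0.158, edgeR adjusted p 0.00161). With tissue as the only term it did not pass in all 21 libraries (edgeR adjusted p 0.0546), but passed in the 6 libraries alone (0.0107). *HOXD3A* had a log2 difference of -0.751 ± 0.164 (edgeR adjusted p 0.00214) and did not pass without replicate 1 (-0.664, adjusted p 0.0569). *HOXD10A* was lower in every fish without passing (-0.497 ± 0.193, edgeR adjusted p 0.0764). The step to *HOXD12A* was abrupt, since *HOXD11A* next to it had 3.08 RPKM (CPM divided by the length of the gene model in kilobases) in DF and 2.25 RPKM in DSL, while *HOXD12A* had 11.5 RPKM in DF and 0.0615 RPKM in DSL.

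**Figure D3:**
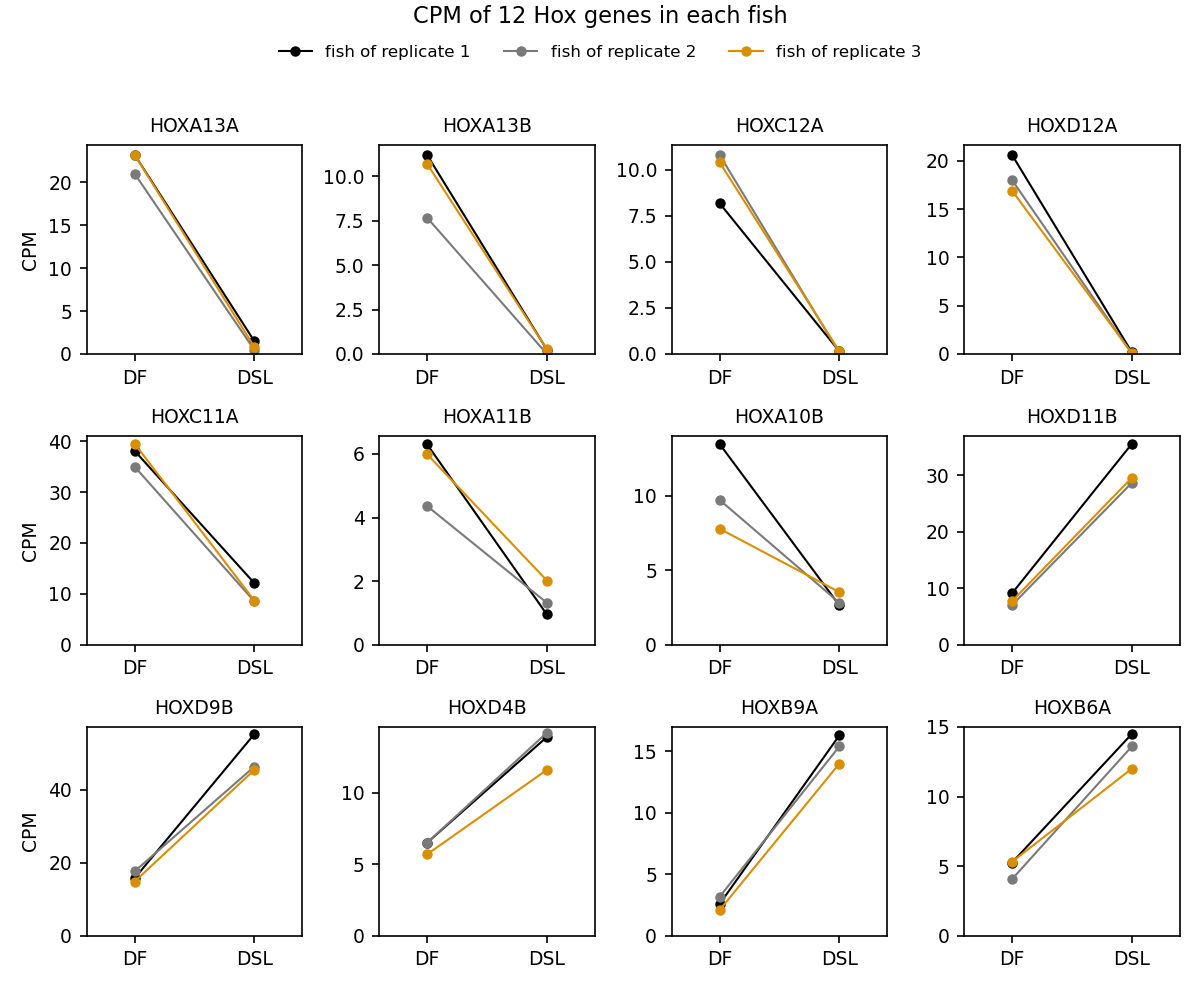
CPM (vertical axis, from 0) of 12 *Hox* genes in DF and DSL, with 1 line per fish. The lines of the genes from *HOXA13A* to *HOXA10B* slope down to DSL in all 3 fish, and those of *HOXD11B*, *HOXD9B*, *HOXD4B*, *HOXB9A* and *HOXB6A* slope up.

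All 7 tested genes of *HOXBA* were lower in DF, and in each the 3 DF libraries lay below the 3 DSL libraries. These genes are of groups 2 to 9 only, and over all clusters 16 of the 19 tested genes of groups 1 to 8 were lower. Cluster and paralogue group can therefore not be told apart here. *HOXB9A*, nearest the high end of the cluster, had 2.57, 3.16 and 2.08 CPM in DF, against 16.3, 15.4 and 14 CPM in DSL. Its log2 difference was -2.56 ± 0.192 (SE, edgeR adjusted p 1.71e-08), the most negative of any *Hox* gene. *HOXB2A*, at the low end, had 0.314, 0.241 and 0.219 CPM in DF, against 1.73, 1.22 and 0.906 CPM in DSL (-2.29 ± 0.381, edgeR adjusted p 0.000177). Near the middle of the cluster, *HOXB6A* had 5.25, 4.06 and 5.31 CPM in DF, against 14.5, 13.6 and 12 CPM in DSL (-1.45 ± 0.128, edgeR adjusted p 1.73e-07). *HOXB3A*, *HOXB4A*, *HOXB5A* and *HOXB8A* had log2 differences of -1.6, -1.2, -1.54 and -1.32.

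These 7 genes also formed the longest stretch of neighbouring tested gene models that were all lower in DF by at least 1 on the log2 scale. The stretch ran over 136 kb of chromosome 11 (1380544 to 1516629) and held 9 tested models of 13 in the table. The 2 models in it without a name had log2 differences of -1.71 and -3.02, and which genes they are is not known. The authors report *HOXB7A* as expressed in *Apeltes*, but no gene model carries that name here. Of the 2 unnamed models, 1 lay between *HOXB5A* and *HOXB6A* and 1 beyond *HOXB9A*, so neither lay between *HOXB6A* and *HOXB8A*. The next longest stretches, of 5 models on chromosome 17 and 4 on chromosome 15, were also lower in DF and held no *Hox* gene. The stretch was picked after its values were seen and is given as a description.

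In *HOXAA*, *HOXA3A*, *HOXA4A*, *HOXA5A*, *HOXA7A* and *HOXA9A* were lower in DF, *HOXA11A* and *HOXA13A* were higher, and *HOXA2A* and *HOXA10A* did not pass. *HOXA4A* had 5.1, 4.9 and 4.1 CPM in DF, against 9.96, 8.65 and 8.62 CPM in DSL (-0.951 ± 0.123, edgeR adjusted p 1.4e-05). *HOXA7A* had 7.18, 7.91 and 5.55 CPM in DF, against 14, 12.9 and 7.89 CPM in DSL (-0.731 ± 0.126, edgeR adjusted p 0.000258). It was the only lower *Hox* gene whose tissues overlapped, by replicate 2 of DF and replicate 3 of DSL. Both *HOXA7A* and *HOXA9A* (-0.61 ± 0.131) failed to pass with tissue as the only term (adjusted p 0.0892 and 0.0853). *HOXA5A* (-0.838 ± 0.287, edgeR adjusted p 0.0423) did not pass with tissue as the only term (0.112), under limma-voom (0.0623), or without replicate 1 (0.346), replicate 3 (0.182), DF replicate 1 (0.176), DF replicate 2 (0.0831), DF replicate 3 (0.0753), DSL replicate 1 (0.179) or DSL replicate 3 (0.179). *HOXA10A* had 27.0 to 32.2 CPM in DF and 30.9 to 40.5 CPM in DSL and did not pass (edgeR adjusted p 0.153).

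In *HOXCA* the genes from *HOXC5A* to *HOXC9A* were lower in DF and *HOXC11A* and *HOXC12A* higher. *HOXC8A* had 14.5, 13.9 and 14.8 CPM in DF, against 29.3, 28.7 and 30.1 CPM in DSL (-1.03 ± 0.123, edgeR adjusted p 5.98e-06). *HOXC9A* had 10.7, 9.74 and 9.6 CPM in DF, against 19.5, 16.2 and 12.9 CPM in DSL (-0.677 ± 0.147, edgeR adjusted p 0.00198). With tissue as the only term it did not pass in all 21 libraries (edgeR adjusted p 0.0599), but passed in the 6 libraries alone (0.0457). *HOXC5A* (-0.387 ± 0.129, edgeR adjusted p 0.0373) and *HOXC6A* (-0.28 ± 0.0867, edgeR adjusted p 0.0248) were the smallest called differences among the lower *Hox* genes. *HOXC5A* did not pass with tissue as the only term (0.163) or without replicate 1 (0.112), replicate 3 (0.21), DF replicate 1 (0.137), DF replicate 3 (0.153), DSL replicate 1 (0.102), DSL replicate 2 (0.0922) or DSL replicate 3 (0.0851). *HOXC6A* did not pass with tissue as the only term (0.0874), with no filter on low counts (0.0762), or without replicate 1 (0.133), replicate 2 (0.11), replicate 3 (0.133), DF replicate 2 (0.0507), DF replicate 3 (0.145) or DSL replicate 1 (0.192). *HOXC10A*, between the lower and the higher genes, had 13.5 to 19.8 CPM in DF and 13.9 to 24.3 CPM in DSL (-0.165 ± 0.178, edgeR adjusted p 0.584). *HOXC4A* likewise did not pass (-0.14 ± 0.14, edgeR adjusted p 0.549).

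Of the 9 *Hox* models that were too low to be tested, *HOXA1A*, *HOXB1A*, *HOXB13A*, *HOXB1B*, *HOXB5B*, *HOXB6B* and *HOXC3A* had 0 reads in DF and in DSL. *HOXB3B* had 0 reads in DF and 2 in DSL. *HOXBB* thus gave no comparison of the 2 tissues, and group 1 was not detected in either.

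Levels were compared between genes by RPKM, which depends on the length of each gene model. The model of *HOXA7A* was the shortest of the tested *Hox* genes, at 701 bp, and its completeness was not tested. In DF the highest *Hox* gene was *HOXC11A*, with 21.8 ± 1.35 RPKM (SD, n = 3), followed by *HOXA11A* (12.8 ± 1.33) and *HOXD12A* (11.5 ± 1.21). In DSL the highest was *HOXD9B*, with 16.8 ± 1.86 RPKM, followed by *HOXA7A* (16.5 ± 4.62) and *HOXC8A* (12.6 ± 0.303). *HOXD12A*, the third in DF, stood at 0.0615 RPKM in DSL. In DF, *HOXC11A* (20.3 to 22.9 RPKM) did not overlap the next gene, while *HOXA11A* (11.6 to 14.2) and *HOXD12A* (10.5 to 12.9) overlapped each other. In DSL, *HOXA7A* (11.3 to 19.9 RPKM) overlapped both *HOXD9B* (15.6 to 18.9) and *HOXC8A* (12.4 to 13).

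Summed over all *Hox* genes, RPKM was 169, 155 and 153 in DF and 205, 172 and 158 in DSL of replicates 1, 2 and 3. Genes of groups 11 to 13 made up 44, 42 and 46.2% of that sum in DF, against 16.7, 14.9 and 15.4% in DSL. Groups 9 and 10 made up 28.5 to 30.1% in DF and 41 to 42.4% in DSL, and groups 1 to 8 made up 25.4 to 28.5% in DF and 41.1 to 44.1% in DSL. None of these shares overlapped between the tissues.

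**Figure D4:**
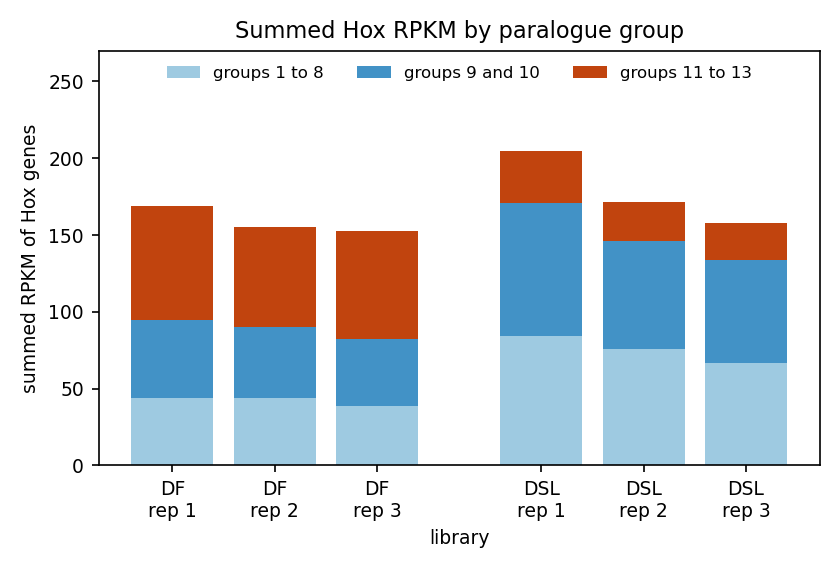
Summed RPKM of *Hox* genes (vertical axis) in each DF and DSL library, stacked by paralogue group. Groups 11 to 13 take 42 to 46.2% of the bar in DF and 14.9 to 16.7% in DSL.

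The levels in the other tissues of the same fish place both ends of the comparison. *HOXD12A*, *HOXC12A*, *HOXA13A* and *HOXA13B* had 18.9 ± 6.85, 15.0 ± 5.87, 22.0 ± 1.17 and 10.8 ± 0.981 CPM in AF (SD, n = 3), the other fin sampled. In DS1, DS2, DS3 and Pter their means did not exceed 0.143, 0.0691, 0.913 and 0.0582 CPM. *HOXC11A* was graded instead, with 46.6 ± 10.4 CPM in AF, 37.5 ± 2.32 in DF, 9.78 ± 2.05 in DSL and 1.47 ± 0.864 in Pter, and 1 read over the 9 libraries of DS1, DS2 and DS3. *HOXB9A* had 2.1 ± 0.522 CPM in AF, 2.6 ± 0.54 in DF, 15.2 ± 1.17 in DSL, 12.2 ± 2.18 in Pter and 32.7 to 40.9 in DS1, DS2 and DS3. The *HOXDB* genes differed from this, with their highest mean in DSL and both fins above DS1 and DS2. That order of means was not particular to *HOXDB*: *HOXD9A*, *HOXD10A* and *HOXC10A* shared it, with 15.6, 15.1 and 18.6 CPM in DSL. The DF minus DSL difference of *HOXD10A* and *HOXC10A* did not pass, however, and CPM of *HOXC10A* overlapped between these tissues. *HOXD11B* had mean CPM of 6.7 in AF, 7.97 in DF, 31.3 in DSL and 16.3 in Pter. In DS3, DS2 and DS1 it had 11.3, 0.469 and 0.049 CPM. *HOXD9B* had 13.8 in AF, 16 in DF, 49 in DSL and 28.8 in Pter. In DS3, DS2 and DS1 it had 23.2, 1.62 and 0.0278 CPM. *HOXD4B* was nearly level in DSL and Pter, with 13.2 and 13 CPM.

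**Figure D5:**
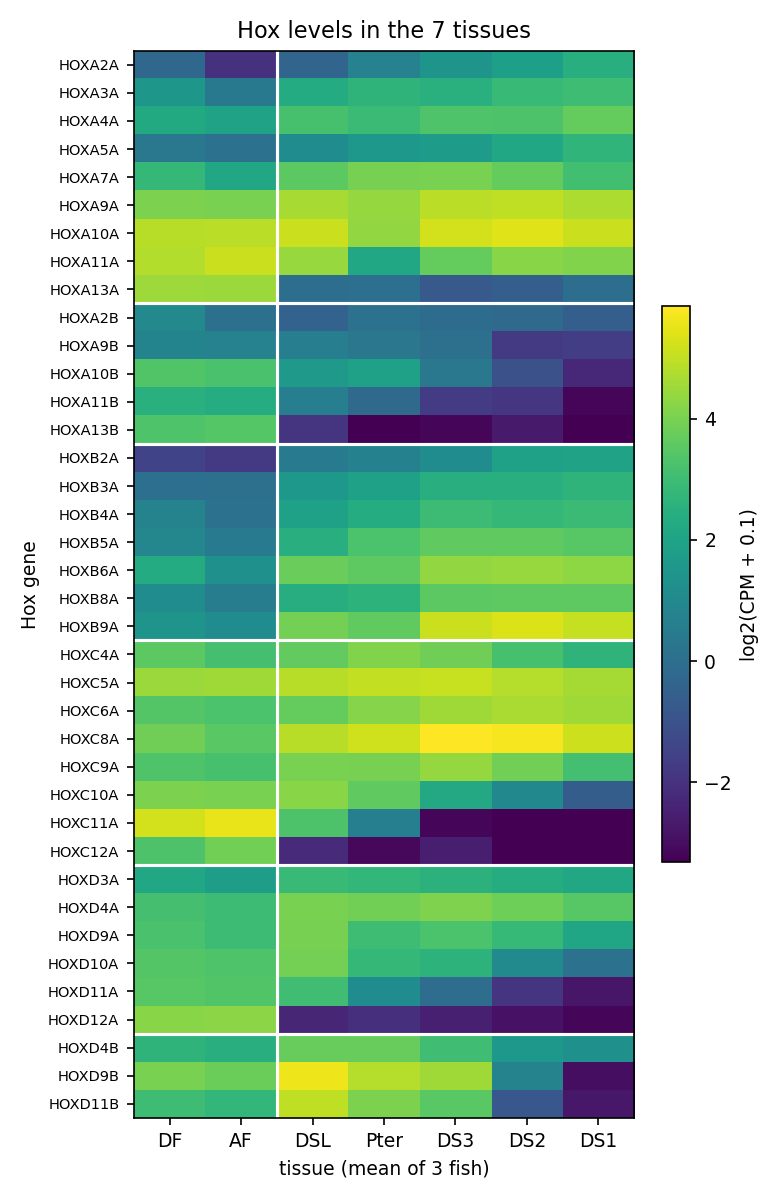
Mean level of each tested *Hox* gene (colour, log2 of CPM + 0.1, 3 fish) in the 7 tissues, with white lines between clusters and between fins and other tissues. DF and AF are bright at *HOXA13A*, *HOXA13B*, *HOXC12A* and *HOXD12A*, where DSL and the 4 tissues right of it are darker, least so at *HOXA13A*.

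A second comparison of a fin with a spine, AF against DS3, shares no library with DF against DSL, although it uses the same 3 fish and the same fit. There 7389 gene models passed (35%), 3821 higher (18.1%) and 3568 lower (16.9%) in AF. The count without replicate 2 was 4382, and it was 3217 with tissue as the only term. Of the 2453 genes higher in DF, 2134 (87%) were higher in AF and 22 (0.897%) lower. The 2134 were 55.8% of the AF list. Of the 1940 genes lower in DF, 1142 (58.9%) were lower in AF and 9 (0.464%) higher, and the 1142 were 32% of the AF list. Among genes that differed by at least 1 on the log2 scale, mean CPM in AF exceeded that of DS1, DS2, DS3 and Pter in 440 of the 484 higher genes (90.9%), against 6812 of all tested (32.2%). It was below all 4 in 264 of the 558 lower genes (47.3%), against 5709 of all tested (27%).

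Among the *Hox* genes, 8 of the 9 that were higher in DF were higher in AF, the exception being *HOXA2B* (AF minus DS3 0.194, edgeR adjusted p 0.712). This was near the share over all gene models higher in DF, 87%. Of the 22 lower in DF, 21 were lower in AF, the exception being *HOXD9A* (-0.292, edgeR adjusted p 0.178). Over all gene models lower in DF the share was 58.9%. The sizes differed between the contrasts. *HOXB9A* had -2.56 for DF minus DSL and -4.06 for AF minus DS3, *HOXB6A* had -1.45 and -3.15, *HOXD11B* had -1.98 and -0.737, and *HOXD9B* had -1.60 and -0.744. These differences of size were not tested.

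Outside the *Hox* genes, gene models are known only by an ID. Those described here had the 2 largest differences in each direction among called models with the same sign in each fish and a mean of at least 5 CPM in the higher tissue. Some models below that level had larger fitted values among those higher in DF. STRG.23479 (chromosome 18, 8624461 to 8629422, plus strand) had 16.6, 8.75 and 9.66 CPM in DF, against 0.141, 0.0322 and 0.321 CPM in DSL. The log2 difference was 6.04 ± 0.423 (SE, edgeR adjusted p 2.05e-08). STRG.3933 (chromosome 3, 11809839 to 11821383, plus strand) had 201, 120 and 214 CPM in DF, against 2.86, 2.09 and 4.0 CPM in DSL (5.88 ± 0.318, edgeR adjusted p 1.04e-10). In AF these models had 13.7 ± 2.14 and 200.0 ± 93.6 CPM (SD, n = 3), and in DS1, DS2, DS3 and Pter at most 0.0665 and 3.68 CPM. DSL thus held 1.41% and 1.68% of their DF level.

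STRG.16032 (chromosome 12, 8879924 to 8884514, plus strand) had 0.713, 0.241 and 0.164 CPM in DF, against 76.8, 55.6 and 45.3 CPM in DSL (-7.32 ± 0.337, edgeR adjusted p 2.33e-11). Its mean was 63.4 ± 23.3 CPM in DS1, 56.1 ± 16.8 in DS2, 33.1 ± 5.84 in DS3, 7.89 ± 3.74 in Pter and 0.514 ± 0.493 in AF (SD, n = 3). STRG.14444 (chromosome 11, 3879588 to 3880947, minus strand) had 0.228, 0.331 and 0.739 CPM in DF, against 22.1, 168 and 84.9 CPM in DSL (-7.64 ± 0.618, edgeR adjusted p 4.44e-08). Its 3 DSL libraries spread widely, yet the lowest was far above every DF library. Both models were low in the 2 fins and highest in a spine. For STRG.14444 that spine was DSL, with a mean of 91.8 ± 73.4 CPM. It had 45.7 ± 57.4 CPM in DS1 and 26 ± 29.1 CPM in DS2. In DS3, Pter and AF it had 7.54 ± 5.91, 1.47 ± 1.69 and 0.289 ± 0.222 CPM. The calls of all 4 models held under each of the 17 alternatives tried.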

How the data were processed

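RNA-seq libraries came from 7 dissected tissues of each of 3 fish, stranded mRNA preparations of L/L fry. For *Gasterosteus* the paper gives generally fewer PCR cycles for fin than for spine libraries, and it describes the *Apeltes* protocol as similar. Such a difference would run with fin against spine, and its effect was not tested. The values are counts that the authors made per gene model, whole numbers without normalization. The submitters' processing notes name Trim Galore, cutadapt 2.4, FastQC 0.11.9, STAR, featureCounts and Subread 2.0.1, with no role or order. StringTie gave the gene models, on an *Apeltes* assembly of the authors' own with scaffolds placed by the *Gasterosteus* chromosomes, and BLAST gave the *Hox* names. Whether counting took account of strand is not given in the sources used here. The table also holds 85 columns of samples outside this comparison, which were not used.

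Gene models with low counts were removed with filterByExpr. The 21134 that stayed held all but 0.0403% of the counts. Counts were scaled by TMM factors (1.09 to 1.15 in DF, 1.07 to 1.11 in DSL) and tested in edgeR 4.0.16 (R 4.3.3) by its quasi-likelihood test, two-sided, with tissue and fish as terms and all 21 libraries in the fit, which leaves 12 residual degrees of freedom per gene. Benjamini-Hochberg adjustment was over all tested gene models, at 0.05. Each SE is approximate, taken from the log2 difference and its F statistic. CPM uses the totals of tested genes scaled by TMM, and a prior count of 2 was used for log2 CPM. Ratios of pooled reads have exact 95% intervals, and a count of 0 was read as up to 3 counts over the 3 libraries. Intervals and this floor cover counting error only. The coefficient of variation between replicates was 0.118 with fish in the model and 0.255 without. Gene models were named if they had a *Hox* name, or were the 2 highest and 2 lowest log2 differences among called non-*Hox* models that moved the same way in 3 fish and had at least 5 CPM in the higher tissue.

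The replicate number stands for 1 fish in the labels, so it pairs the libraries. Deviations from the tissue means correlated at 0.632, 0.692 and 0.709 between DF and DSL of the same fish. Libraries of 1 tissue were not copies of each other, with a chi-square per degree of freedom of 26.6 to 45.7. The 17 alternatives were no fish term, RLE factors, DESeq2 1.42.0, limma-voom (limma 3.58.1), no filter or a stricter one (1 CPM in 3 libraries), the 6 libraries alone with or without the fish term, and leaving out each fish and each DF or DSL library. A minimum log2 difference of 1 was tried beside these, for counts of genes only. On simulated data for DF against DSL with 200 changed genes among 20937, 46.3% were recovered at a log2 change of 0.5, 89.6% at 1 and 100% at 2, and 5.99% of the calls were false. The changed genes were drawn only from those averaging above about 1 CPM, and the simulated spread was that of the fitted model. Recovery of genes below that level was not measured, and far fewer genes were changed than were called in the data. The comparison, the *Hox* list and the tests were chosen with earlier results of these data known.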

Additional observations from a re-analysis of the deposited data

Results flagged for a closer look

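In *HOXC10A* and *HOXD10A* the fin was below the spine in all 3 fish in one contrast and above it in all 3 fish in the other, and the difference between the contrasts was not tested. This pattern was searched for among the 38 tested *Hox* genes and the other models described by ID. A shared sign is common: of all gene models not called for DF minus DSL, 42.4% had the sign of the fit in all 3 fish. *HOXC10A* had a fitted log2 difference of -0.165 for DF minus DSL, with -0.294, -0.156 and -0.0439 in replicates 1, 2 and 3, and AF minus DS3 was 1.43, 2.24 and 1.88 in the same fish (fitted 1.85, edgeR adjusted p 1.04e-06). *HOXD10A* had -0.497 for DF minus DSL, with -0.783, -0.554 and -0.174 in the 3 fish, and 0.218, 1.14 and 1.05 for AF minus DS3 (fitted 0.794, edgeR adjusted p 0.00527). The DF minus DSL difference of neither gene passed the threshold. Mean CPM of *HOXC10A* was 16.4 in DF and 15.9 in AF, against 18.6 in DSL and 4.53 in DS3. For *HOXD10A* it was 10.6 in DF and 9.94 in AF, against 15.1 in DSL and 5.98 in DS3. The fins were thus close in level, while DS3 was below DSL.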

How the results depend on the processing

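The number of calls depended strongly on the replicate block, and also on the fish included and on the minimum log2 difference. Of the 4393 genes called with fish in the model, 1587 (873 higher, 714 lower) passed with no replicate block, all of them among the 4393. With the 6 libraries alone and no replicate block 1197 passed, of which 1192 were among the 4393. AF against DS3 gave 3217 in place of 7389 with no replicate block. Of the 38 tested *Hox* genes, 31 passed with the block, 23 without it and 24 with the 6 libraries alone and no block. Beside these, 4393 of the 21134 gene models passed with the block and 1587 without it. RLE factors, DESeq2, limma-voom, no filter, the stricter filter and the 6 libraries alone with the block gave 4380, 4632, 4536, 4213, 4365 and 5386 genes. Asking for at least 1 on the log2 scale left 1042 genes (4.93% of those tested) and 19 of the 38 tested *Hox* genes. Leaving out 1 fish or 1 library gave 2483 to 3731 genes and 27 to 30 *Hox* genes for DF against DSL, and leaving out 1 fish gave 4382 to 5696 genes for AF against DS3.

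The 17 alternatives counted per gene do not include the minimum log2 difference of 1. Over these 17, 21 of the 31 called *Hox* genes passed in every one and 10 were lost in at least 1. *HOXA10A*, *HOXD10A* and *HOXD11A* were gained in at least 1. No call changed sign. The sign of 2 genes that were not called did: *HOXA2A* (0.0543) was -0.00512 under limma-voom, -0.0234 with the 6 libraries and the block, and -0.218, -0.0514, -0.358 and -0.0863 without replicate 1, replicate 3, DF replicate 1 and DSL replicate 3 (range -0.358 to 0.359 over single fish and libraries left out), and *HOXC4A* (-0.14) was 0.0528 without replicate 3 and 0.00931 without DSL replicate 3 (range -0.362 to 0.0528). The cause of these changes was not tested. Depth limits the genes at the floor: with 9 to 16 reads over the DSL libraries, the ratios of *HOXD12A*, *HOXC12A* and *HOXA13B* have wide counting intervals. These intervals leave out the spread between fish.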
